A study of Mus musculus with 12 samples.

Results

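The samples described here were geniculate ganglia of wild-type mouse embryos, taken at embryonic day 14.5. They were chosen by title: 6 of the 12 arrays of the series were titled as wild type, 3 from a colony studied for BDNF (the BDNF line, on the C57BL/6J background) and 3 from a colony studied for NT4 (the NT4 line, on the 129 background). Neither group carried a deletion or a treatment according to the labels, and the knockout arrays of both colonies were left out. The labels call the 3 arrays of a line biological replicates, but nothing in them states how many embryos or ganglia were pooled for a sample, so the spread between arrays may be partly technical. Total RNA was column-purified, treated with DNase I, amplified with the WT-Ovation Pico system, labelled with biotin and hybridised to Affymetrix mouse arrays, 1 array per sample. The question addressed here is which genes gave a bright signal, a dim signal or one at the floor in the normal ganglion of both lines. Line and strain go together, so differences between the lines cannot be told apart from strain or colony, and no test of line was made. All values below are descriptions without a test.

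The geniculate ganglion is the sensory ganglion of the facial nerve. Its visceral neurons derive from an epibranchial placode and carry taste from the front of the tongue and from the palate, and its somatosensory neurons innervate skin of the outer ear. Most of these neurons depend on the receptor TrkB and its ligands BDNF and NT4 during embryonic life. Satellite glia and Schwann cells of neural crest origin surround the cell bodies and axons, and a dissected ganglion also brings along connective tissue, vessels, blood and some of its surroundings. In such bulk samples, fewer cells of a type and less RNA per cell cannot be told apart.

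The unit of description was the gene. Of 45037 probe sets that were not array controls, 34945 carried 1 gene symbol and covered 18193 genes, and the value of a gene is that of its probe set with the highest mean log2 intensity over the 6 arrays. Genes were ranked within each line by the mean log2 intensity of its 3 arrays, and the percentile runs to 100 for the brightest gene of the line. The brightness of a probe set depends on how its probes bind as well as on the RNA, so a rank orders probe sets and does not count molecules. A gene was called bright if it was among the top 10% of genes on each of the 6 arrays, which needed an intensity of at least 2889 to 3206 depending on the array. It was called dim if, on each array, it lay at or under the 90th percentile of the olfactory receptor genes, a family a ganglion is not known to use, which put the limit at 72.0 to 83.6. A gene at the floor, a subset of the dim genes, stayed under 20 on all 6 arrays.

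By these definitions 1492 of 18193 genes (8.2%) were bright on all 6 arrays, 2932 (16.1%) were dim and 341 (1.87%) were at the floor. Within single lines, 1639 genes (9.01%) were bright on the 3 arrays of the BDNF line and 1652 (9.08%) on those of the NT4 line. Dim genes numbered 3510 (19.3%) and 3563 (19.6%), and floor genes 563 (3.09%) and 558 (3.07%), in the same order of lines. No gene was bright in 1 line and dim in the other. The arrays were alike in their median gene intensity, between 328 and 349, and the top 10% of genes held 50.3% to 51.0% of the summed intensity. Above the median the BDNF line was higher as a whole. The 75th percentile of gene intensity was 1322 to 1334 in the BDNF line and 1200 to 1232 in the NT4 line. The limit of the top 10% was 3175 to 3206 and 2889 to 2936. Among bright genes, an intensity gap of that size between the lines is therefore not particular to a gene. Across genes, Spearman's rank correlation was 0.978 to 0.992 for the 6 pairs of arrays of the same line and 0.951 to 0.963 for the 9 pairs from different lines. Genes are not independent replicates, and the arrays share their probes, so these correlations are given as a description.

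Arrays also differed in ways that a line does not name. Replicate 3 of the NT4 line had a summed intensity of 72160 over 17 connective tissue genes against 48327 and 46828 on the other arrays of its line, and 3842 over 14 skeletal muscle genes against 1167 and 1410. Replicate 2 of the BDNF line had the highest sum over 24 cell cycle genes, 50214 against 36997 and 41168. The Y-linked gene Kdm5d read 22.9 on replicate 2 of the BDNF line and 18.4 on replicate 2 of the NT4 line, against 355 to 1029 on the other 4 arrays. Xist, the RNA that coats the inactive X chromosome, read 3033 to 6942 on all 6 arrays. Both Xist and Y-linked signal were therefore high on the same 4 arrays. With replicate 2 of both lines left out, 1546 genes were bright, 3132 dim and 385 at the floor.

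Of the 3 marker genes, the neuronal Prph and P2rx3 were bright and the glial Sox10 was not. The level of Sox10 does not stand for all glial genes, since Fabp7, described below, averaged 11018 over the 6 arrays. Prph encodes peripherin, an intermediate filament of neurons with peripheral axons. It read 11688, 11488 and 12253 in the BDNF line and 11584, 11316 and 10811 in the NT4 line, at percentiles 99.6 and 99.6. P2rx3 encodes a subunit of the ATP-gated channel through which taste nerves are excited. Its intensities were 8384, 7607 and 8558 in the BDNF line and 8453, 8297 and 7759 in the NT4 line, which ranked it 242 and 214 of 18193. Sox10, a transcription factor of neural crest glia, read 1777, 1854 and 1917 in the BDNF line and 1840.3, 1981 and 2172 in the NT4 line and lay in the middle band at percentiles 81.4 and 84.3. On these brightest probe sets the lines overlapped for all 3 genes. Of the other probe sets of P2rx3, one averaged 7735 and 7641 in the lines and one 233 and 331. The dimmer probe sets of Prph were not all alike. They averaged 1004, 2565 and 2135 in the BDNF line and 951, 886 and 354 in the NT4 line. The mean of the BDNF line was higher for all 3, with the smallest gap for the first.

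**Figure D1:**
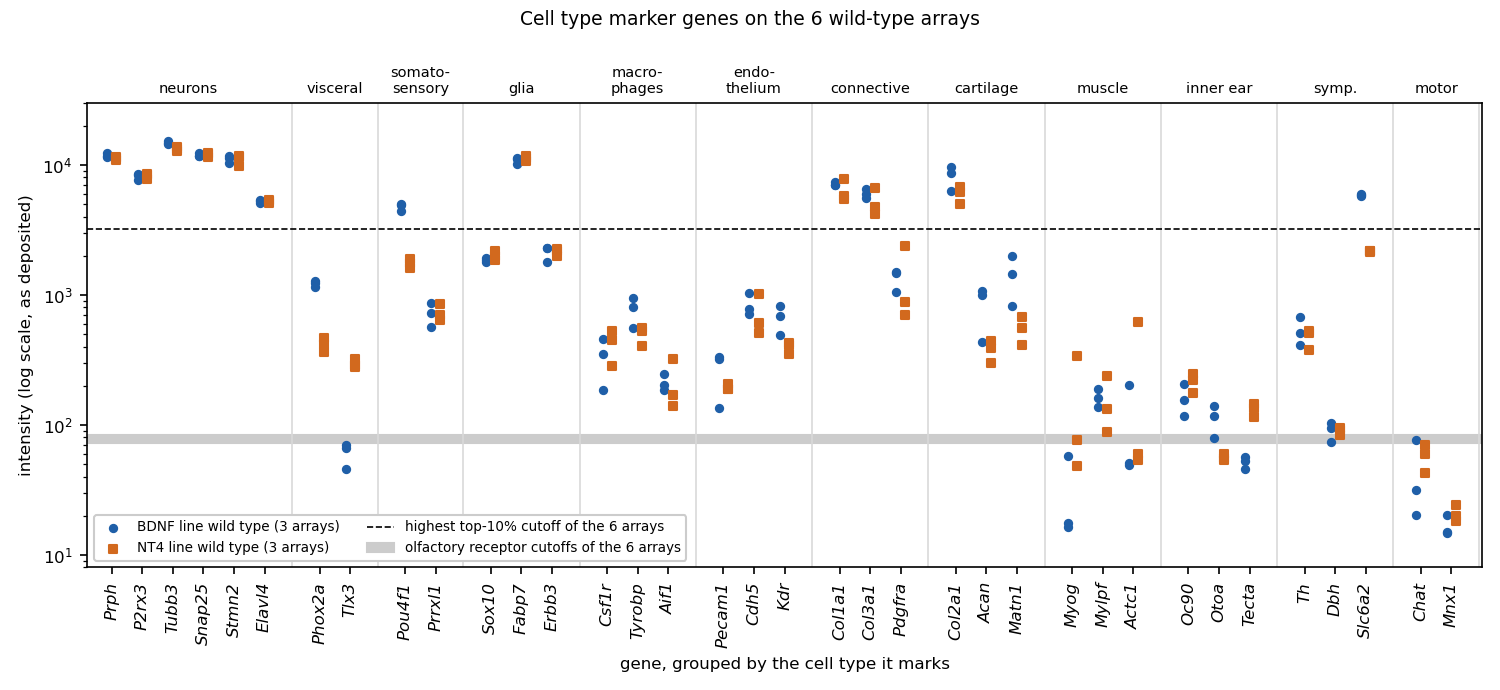
Intensity (log axis) of marker genes on each of the 6 wild-type arrays, 3 per line, with 1 point per array, the dashed line at the highest bright limit (3206) and the grey band over the dim limits (72.0 to 83.6). Prph and P2rx3 sit above the dashed line on every array, and Sox10 lies between 1777 and 2172. The points of the lines lie apart for Phox2a, Tlx3, Pou4f1 and Slc6a2, and also for others such as Tubb3, Matn1, Kdr and Otoa.

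The top of the ranking included genes of the cytoskeleton, of translation and of energy metabolism. Tmsb10, which encodes the actin-binding peptide thymosin beta 10, read 22406, 21083 and 22816 in the BDNF line and 21774, 21378 and 20974 in the NT4 line. Tuba1a, the main alpha-tubulin of young neurons, read 21922, 20917 and 22010.4 in the BDNF line and 22415, 22376 and 21916 in the NT4 line. These ranked 1 and 2 in the BDNF line and 2 and 1 in the NT4 line, with overlapping intensities. The 3rd rank in both lines went to AY036118, and the 4th and 5th to Pebp1 (an inhibitor of Raf kinase) and Hnrnpab (an RNA-binding protein). The remaining genes of the 25 with the best rank in both lines were Malat1, a nuclear noncoding RNA, the mitochondrial channel Vdac1, the 14-3-3 protein Ywhae, the neurofilament Nefl, Stmn1, Selenow, the tubulins Tubb2b, Tubb2a and Tubb4b, the ribosomal protein genes Rpl41, Rpl38, Rps29, Rpsa, Rplp2 and Rpl13a, the actin gene Actb, the thymosin gene Tmsb4x, Hmgn1, Ndufb7 and Atp5a1. Among these 25 the lowest single intensity was 13566 (Atp5a1, a subunit of ATP synthase). The order near the top was stable: the lines shared 8 of their top 10 genes, 44 of their top 50, 90 of their top 100 and 896 of their top 1000. On the level of single arrays, 77 genes were in the top 100 of all 6 and 128 in the top 100 of any.

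Genes of the neuronal cytoskeleton and ribosomal protein genes had the highest median percentiles of 33 gene lists. Of 22 neurofilament and microtubule genes, 19 were bright and none was dim, against 8.2% and 16.1% of all genes, and the median percentile was 99.4 in both lines. Nefl, the light neurofilament subunit, read 16782, 15992 and 17294 in the BDNF line and 16653, 16445 and 15909.6 in the NT4 line. Tubb3, the tubulin used to mark neurons, read 14736, 14384 and 15142 in the BDNF line and 13679.6, 13338 and 12707 in the NT4 line, and all 3 arrays of the BDNF line were above those of the NT4 line. Map1b, a microtubule-associated protein of growing axons, read 14199.9, 13689 and 14638 in the BDNF line and 12331, 12326 and 11899 in the NT4 line. The medium neurofilament subunit Nefm ranged from 8803 to 11277, while the heavy subunit Nefh, which appears late in neuronal maturation, read 1257, 810.1 and 1263 in the BDNF line and 915, 886 and 914 in the NT4 line and was not bright. Map1a and Map7d2 were the other genes of the list outside the bright band.

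Among 18 pan-neuronal genes 15 were bright, against 8.2% of all genes, and all 18 lay above the gene median in both lines. Snap25, a SNARE protein of transmitter release, read 11616, 11642 and 12387 in the BDNF line and 12441, 12176 and 11422 in the NT4 line. Stmn2, a stathmin of growth cones, ranged from 9735 to 11722 and Gap43, a growth-cone protein, from 9280.0 to 11589, each lowest on replicate 3 of the NT4 line. The RNA-binding proteins Elavl2, Elavl3 and Elavl4 were all bright, and the neuronal nuclear antigen Rbfox3 was not, at 1530.3 to 2460.5. Chga and Scg2, which encode granins of dense-core vesicles, lay in the middle band. Of 22 genes of synaptic vesicle release, 9 were bright and none was dim, against 8.2% and 16.1% of all genes. Sncg, a synuclein abundant in peripheral sensory neurons, read 10434, 9438 and 10954 in the BDNF line and 12877, 12929 and 11825 in the NT4 line, with the NT4 line above the BDNF line on every array. Syp, Vamp2, Syt11 and Cplx1 were bright as well, whereas the active zone genes Bsn, Pclo and Unc13a lay in the middle band.

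Of 12 measured transcription factors and receptors used to describe visceral and gustatory neurons, 2 were bright and none was dim. Of all genes, 8.2% were bright and 16.1% dim. The bright members were P2rx3 and Isl1, a LIM homeodomain factor of sensory and motor neurons, which read 7479.8, 7534 and 7720.4 in the BDNF line and 8074, 7505 and 7091 in the NT4 line. Phox2a, a homeodomain factor of visceral neurons, read 1281, 1237 and 1152 in the BDNF line and 469, 419 and 366 in the NT4 line, and every array of the BDNF line was above every array of the NT4 line. Tlx3, a homeobox gene of sensory relay and sensory neurons, had the opposite pattern with 69.8, 45.9 and 66.1 in the BDNF line and 322, 289.6 and 280.0 in the NT4 line. In the BDNF line these Tlx3 values lay under the olfactory receptor limit of their array, and in the NT4 line they did not. Phox2a and Tlx3 are each represented by 1 probe set.

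The serotonin receptor subunit Htr3a, found on taste afferents, read 3003, 2304 and 2618 in the BDNF line and 1594, 1795 and 1345 in the NT4 line, and its partner Htr3b read 209.7, 151 and 220.1 in the BDNF line and 124, 109 and 120.4 in the NT4 line. For both subunits every array of the BDNF line was above the NT4 line. Eya1, a cofactor needed for placodal ganglia, read 2306, 2129.7 and 2286 in the BDNF line and 1882, 2169.8 and 1716 in the NT4 line, and Eya2 read 548, 258 and 443 in the BDNF line and 618, 752 and 609 in the NT4 line. The lines overlapped for Eya1, whereas for Eya2 the NT4 line was above the BDNF line on every array. P2rx2, whose product joins that of P2rx3 in the channel of taste afferents, read 1105, 927 and 957 in the BDNF line and 1085, 1045 and 1057 in the NT4 line, with overlapping lines. Ret, the signalling receptor for GDNF family ligands, read 1730.4, 1289 and 1438 in the BDNF line and 1608, 1750.5 and 1456 in the NT4 line, also with overlap. Hand2, a factor of autonomic neurons, stayed between 108.5 and 181. Neurog2, the proneural factor that starts neurogenesis in epibranchial placodes, read 75.4, 540.4 and 73.6 in the BDNF line and 7.42, 5.02 and 4.45 in the NT4 line. Every array of the BDNF line was above the NT4 line, and replicate 2 of the BDNF line was far above the other arrays.

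Of 12 measured somatosensory genes 1 was bright, 8 lay in the middle band and 3 were dim, against 8.2% bright and 16.1% dim of all genes. Tac1, the precursor of substance P, read 6142, 4977 and 5942 in the BDNF line and 6118, 6138 and 5589 in the NT4 line and was the bright member. Pou4f1 (Brn3a), a factor that specifies somatosensory neurons, read 4446, 4916 and 4968 in the BDNF line and 1874, 1602 and 1747 in the NT4 line. All 3 arrays of the BDNF line passed the bright limit for Pou4f1 and none of the NT4 line did. A second probe set of Pou4f1 averaged 457 in the BDNF line and 707 in the NT4 line, so the 2 probe sets differ in which line is higher. Avil (advillin) read 2648, 2275 and 2824 in the BDNF line and 2678, 2528 and 3043 in the NT4 line, and Prrxl1, a homeobox gene of sensory neurons, read 723, 562 and 873 in the BDNF line and 848, 705 and 645 in the NT4 line. Runx1 ranged from 418 to 780.4 and Runx3 from 158 to 401. Trpv1, the capsaicin receptor, stayed between 12.3 and 24.8, Trpa1 between 19.3 and 65.9 and the cold receptor Trpm8 between 46.5 and 68.4, all dim. The nociceptor sodium channel Scn10a ranged from 64.6 to 174.

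Of 9 measured neurotrophin receptors and ligands 2 were bright, both of them receptors, and none was dim, against 8.2% and 16.1% of all genes. Ntrk2, which encodes TrkB, read 6443, 5856 and 6837 in the BDNF line and 5799, 5812 and 5198 in the NT4 line. Ngfr, the low-affinity receptor p75 of neurons and glia, read 6866, 6625 and 7333 in the BDNF line and 5656, 5697 and 5689.8 in the NT4 line, and every array of the BDNF line was above the NT4 line. Ntrk3 (TrkC) lay in the middle band at 2376, 1218 and 1448 in the BDNF line and 1845, 1326 and 1487 in the NT4 line, on the brightest of 8 probe sets. The other 7 averaged 54.6 to 371 over the 6 arrays, and with the median of its probe sets Ntrk3 lay at percentile 36.7 in place of 79.2. The ligand Bdnf read 243, 169 and 288 in the BDNF line and 364, 473 and 238 in the NT4 line, with a mean of 233 ± 60.0 in the BDNF line and 358 ± 118 in the NT4 line (SD, n = 3 each), and the lines overlapped. Its second probe set averaged 262 and 184 in the same order. Ntf5, the gene of NT4, read 147, 110.2 and 118 in the BDNF line and 33.8, 42.8 and 46.6 in the NT4 line, above the olfactory receptor limit of each array in the BDNF line and under it in the NT4 line. Sort1, a sorting receptor that binds proneurotrophins, ranged from 1533 to 2230.1.

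Of 9 GDNF family genes none was bright and 2 were dim, near the 8.2% and 16.1% of all genes. Gfra2, the neurturin receptor, read 4478, 2017 and 3669 in the BDNF line and 3928, 4017 and 3572 in the NT4 line, so replicate 2 of the BDNF line alone kept it out of the bright band. Gfra1 read 896, 856 and 1228 in the BDNF line and 794, 803 and 932 in the NT4 line and Gfra3, the artemin receptor, 398, 352 and 429 in the BDNF line and 1146, 1357 and 1049 in the NT4 line, with the lines apart for Gfra3. The ligands Nrtn and Artn were dim on all 6 arrays, and Gdnf read 247, 91.1 and 78.2 in the BDNF line and 86.1, 93.0 and 84.6 in the NT4 line.

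Of 11 genes that mark the transmitter of a neuron none was bright and 3 were dim, against 8.2% and 16.1% of all genes, and the median percentiles were 26.7 and 27.2. Slc17a6, the vesicular glutamate transporter of sensory neurons, read 3037, 2555 and 2797 in the BDNF line and 2967, 3072 and 2768 in the NT4 line and was the brightest of them. The glutamate transporter Slc17a7, the GABA enzyme Gad1 and the serotonin enzyme Tph2 were dim. Slc32a1, the vesicular GABA transporter, read 709, 516 and 613 in the BDNF line and 118, 94.1 and 136 in the NT4 line, and the lines did not overlap on this probe set. The other 3 probe sets of Slc32a1 averaged 136, 172 and 76.8 in the BDNF line and 151, 157 and 28.0 in the NT4 line and did not show a gap of that size in intensity. In the list of 14 noradrenergic and autonomic genes none was bright and 3 were dim, near the 8.2% and 16.1% of all genes. Slc6a2, the noradrenaline transporter, read 5718, 5822 and 5971 in the BDNF line and 2144, 2190.4 and 2182 in the NT4 line at percentiles 96.8 and 85.5. Dbh, the enzyme that makes noradrenaline, had percentiles of 25.4 and 25.1 and stayed between 73.4 and 103. A dimmer probe set of Slc6a2 averaged 1795 and 797 in the lines, again higher in the BDNF line. Th, the rate-limiting enzyme of catecholamine synthesis, read 681, 415 and 509 in the BDNF line and 512, 529 and 377 in the NT4 line, and Chat and Vip, of cholinergic and parasympathetic neurons, were dim.

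Motor neuron genes were listed because the facial nerve also carries motor axons. Prph is shared with sensory neurons and was the 1 bright gene of 9, and 2 were dim, against 8.2% and 16.1% of all genes. Mnx1, a defining factor of spinal motor neurons, stayed between 14.8 and 24.2 and Chat between 20.3 and 76.1. Isl2, a LIM homeodomain factor related to Isl1, read 1954, 2118 and 1922 in the BDNF line and 288, 273 and 259 in the NT4 line, so the BDNF line was above the NT4 line on every array. Isl2 is measured by 1 probe set.

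Of 19 measured neuropeptide genes, 1 (Tac1) was bright and 5 were dim, against 8.2% and 16.1% of all genes, and 5 lay above the gene median in both lines. Adcyap1, which encodes PACAP, ranged from 1267 to 1706. Sst read 696, 688 and 716 in the BDNF line and 999, 1263 and 1357 in the NT4 line and Nts 686, 855 and 912 in the BDNF line and 1123, 1085 and 981 in the NT4 line. Penk, the enkephalin precursor, read 1134, 1105 and 1246 in the BDNF line and 746, 654 and 2028 in the NT4 line, and its highest value fell on the NT4 array with the highest connective tissue and muscle sums. Calcb and Tac2 were dim. Calca was not analysed here.

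Glial genes covered a wide range, with 3 of 18 bright and 1 dim, against 8.2% and 16.1% of all genes. Their median percentiles were 69.2 and 71.7. Fabp7, a fatty-acid binding protein of immature glia, read 11053, 10101 and 11254 in the BDNF line and 11629.6, 11316 and 10752 in the NT4 line. Ednrb, the endothelin receptor of the neural crest lineage, ranged from 3604 to 4087. Ngfr, described above, was the 3rd bright gene. Pmp22, a myelin protein that is made before myelin forms, read 3367, 3002 and 3496 in the BDNF line and 3840.4, 4051 and 3856 in the NT4 line and failed the bright limit on 1 array. Erbb3, the neuregulin receptor of Schwann cells, ranged from 1796 to 2292, and the myelin gene Mbp from 946 to 1359.7. Gfap, a filament of mature glia, was dim at 49.0 to 63.4.

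Several connective tissue genes were bright in the dissected ganglia. Of 17 measured, 5 were bright and none was dim, against 8.2% and 16.1% of all genes, and 16 lay above the gene median in both lines. Vim, the intermediate filament vimentin, read 10611, 10816 and 11479.7 in the BDNF line and 10409, 10171 and 11473 in the NT4 line and is also expressed by glia and immature neurons. The collagen gene Col1a1 read 6980.4, 7358 and 7034 in the BDNF line and 5484, 5751 and 7817 in the NT4 line, Col1a2 read 6441, 6411 and 6521 in the BDNF line and 4407, 4342 and 8159 in the NT4 line and Col3a1 5919, 5518 and 6472 in the BDNF line and 4738, 4223 and 6588 in the NT4 line. Replicate 3 of the NT4 line was the highest of its line for all 3 collagen genes, and without it both other arrays of the NT4 line were below every array of the BDNF line. Pdgfra, a receptor of mesenchymal cells, read 1060.3, 1486 and 1476 in the BDNF line and 882, 695 and 2366 in the NT4 line, and Lum, a small proteoglycan of connective tissue, 719, 804 and 921 in the BDNF line and 609, 556 and 1879 in the NT4 line. The part of other tissue in the results on neurons and glia was not tested.

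Of 16 cartilage genes 1 was bright and none was dim, against 8.2% and 16.1% of all genes. In both lines 10 lay above the gene median and 5 under it, with median percentiles of 68.0 and 58.6. Low members were Comp, Matn3 and Matn4, at mean percentiles of 27.3, 28.7 and 31.5. Col2a1, the main cartilage collagen, read 8657, 6337 and 9697 in the BDNF line and 5035, 6206 and 6764 in the NT4 line. Col9a3 read 4439, 2936 and 4364 in the BDNF line and 2169, 2768 and 2428 in the NT4 line, Matn1 (matrilin of cartilage) 1443, 824 and 2003 in the BDNF line and 409.5, 556 and 675 in the NT4 line and Acan (aggrecan) 999, 431 and 1076 in the BDNF line and 296, 444 and 389 in the NT4 line. Replicate 2 of the BDNF line was the lowest of its line for each of these. Col9a2 read 1248, 775 and 1192 in the BDNF line and 80.8, 76.6 and 78.9 in the NT4 line, and the lines did not overlap.

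Genes of other non-neuronal cells lay mostly in the middle band, apart from globins. The counts stand beside 8.2% bright and 16.1% dim of all genes. Of 10 red cell genes 2 were bright: Hbb-y, an embryonic beta-type globin, read 10874, 12188 and 11295 in the BDNF line and 8088, 10831 and 9584 in the NT4 line and Hbb-b2 9217, 9286 and 9612 in the BDNF line and 7493, 9222 and 8156 in the NT4 line. Macrophage genes had no bright and no dim member among 15. In both lines 2 lay above the gene median and 12 under it, with median percentiles of 36.3 and 33.1. Tyrobp, the adaptor of myeloid receptors, read 939, 552 and 799.9 in the BDNF line and 406, 524 and 557 in the NT4 line. C1qa was a low member, at 52.1 to 109. Among 16 endothelial and pericyte genes none was bright or dim, Cdh5, the adhesion protein of endothelial junctions, ranged from 504 to 1029 and Pecam1 from 134 to 335. Skeletal muscle genes had no member above the gene median in both lines. Myog, which drives muscle differentiation, read 58.0, 17.6 and 16.4 in the BDNF line and 47.9, 76.2 and 337 in the NT4 line, and Actc1, a muscle actin, 49.1, 51.0 and 201 in the BDNF line and 59.6, 54.0 and 623 in the NT4 line, so replicate 3 of the NT4 line was the highest of the 6 arrays for both.

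Genes of neighbouring epithelia and distant tissues were set beside the 8.2% bright and 16.1% dim of all genes, and none of these lists had a bright member. Of 11 inner ear genes 3 were dim and none was above the gene median in both lines, and Oc90, an otoconial protein, ranged from 116 to 247. Taste receptor cell genes, which belong to the target organ rather than to the ganglion, had 3 dim of 10, and Tas1r3, a sweet and umami receptor subunit, ranged from 133 to 195. Epidermal Krt10 read 1565, 1843 and 1629 in the BDNF line and 1596, 2559.7 and 2658 in the NT4 line and Krt5 1069.7, 1897 and 1211 in the BDNF line and 795, 1596 and 1599 in the NT4 line, with replicate 2 of the BDNF line and replicates 2 and 3 of the NT4 line highest, while Flg (filaggrin) was at the floor at 1.77 to 7.50. Of 11 liver genes 5 were dim, and Alb (albumin) ranged from 52.6 to 97.4. Of the testis genes 4 of 11 were dim, and the sperm protamine gene Prm1 was the 1 above the gene median in both lines, at 752 to 959.5 on its brightest probe set and at means of 21.1 and 18.4 on a second. Brain regional genes had 5 dim of 11, including En1, En2 and Tbr1, and lymphocyte genes 3 of 9. Other lists were at or under the share of all genes: 1 of 10 epidermis genes, 1 of 8 pancreas genes and 0 of 6 melanocyte genes were dim. The median percentiles of the epidermis list were 47.7 and 54.5, those of the pancreas list 18.7 and 23.7 and those of the melanocyte list 24.6 and 26.6.

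**Figure D2:**
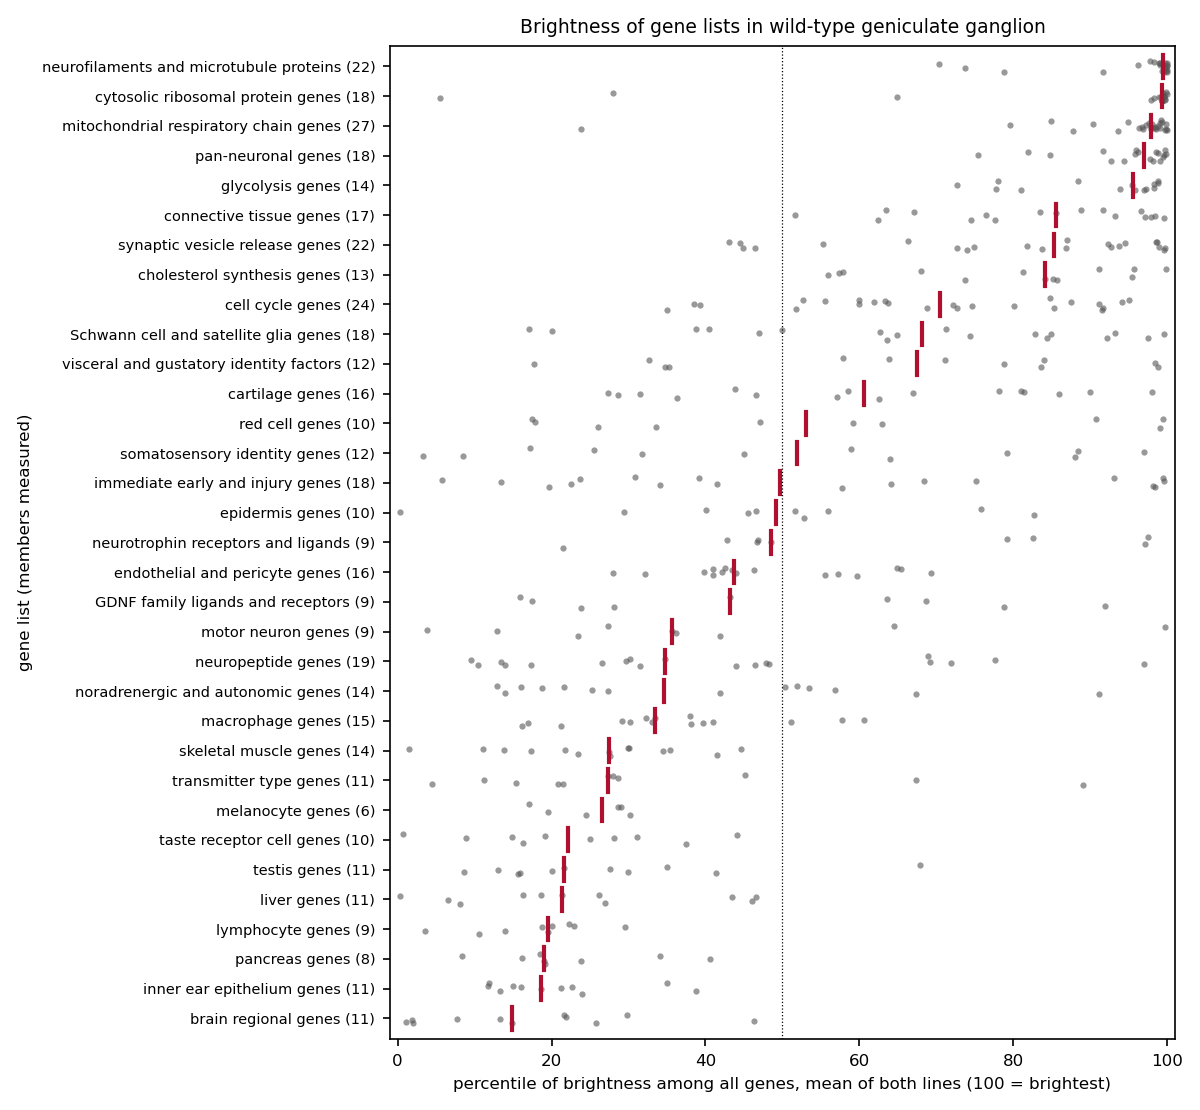
Brightness percentile (mean of both lines) of every measured member of 33 gene lists, each point a gene and each red bar the median of its list, with the number of members in parentheses. Lists of the neuronal cytoskeleton, ribosome, respiratory chain and pan-neuronal genes lie at the right end, and lists of distant tissues lie mostly under percentile 50.

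Housekeeping lists were close to the top in both lines. Their counts stand beside 8.2% bright and 16.1% dim of all genes. Of 18 ribosomal protein genes, 15 were bright and the median percentile was 99.4 in the BDNF line and 99.3 in the NT4 line. Rps29 read 15362, 15459.6 and 15849 in the BDNF line and 15204, 15233 and 15122 in the NT4 line. The 3 ribosomal genes outside the bright band, Rps6, Rps27 and Rpl37, show an effect of the rule of 1 symbol per probe set. Rps27 averaged 104 on its own probe set and 16807 on one that also names Rps27rt, Rpl37 averaged 24.7 and 12642, and Rps6 averaged 1170 and 14872. Of 27 respiratory chain genes 22 were bright and none was dim, Ndufb7, a subunit of complex I, read 15362, 15023 and 15256 in the BDNF line and 14791, 14813 and 14176 in the NT4 line and Cox7c was the faintest at 35.1 to 179.5. Of 14 glycolysis genes 9 were bright, with Pgam1 and Ldha at the head, and Hk2, an inducible hexokinase, read 579, 2513 and 1408 in the BDNF line and 850.5, 798 and 1359 in the NT4 line. Hmgcs1, an early enzyme of cholesterol synthesis, read 12784, 12312 and 12688 in the BDNF line and 13682, 13545 and 13491 in the NT4 line and was the brightest of 13 cholesterol genes, 3 of which were bright.

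Genes of dividing cells were well above the floor at this age. Of 24 cell cycle genes 3 were bright and none was dim, against 8.2% and 16.1% of all genes. In both lines 20 lay above the gene median and 3 under it. Plk1 and Aurka were low members, at mean percentiles of 35.0 and 38.5. Tyms averaged 189 on its own probe set and 948 on one that also names a pseudogene. Mki67, the proliferation antigen, read 4453, 6091 and 5125 in the BDNF line and 4048, 3715 and 4425 in the NT4 line, and Pcna, the clamp of DNA replication, 3448, 4408 and 3647 in the BDNF line and 2899, 3057 and 3293 in the NT4 line. Ccnd1, a cyclin of the entry into the cycle, read 4002, 7085 and 3908 in the BDNF line and 1918, 2422 and 2959 in the NT4 line. Replicate 2 of the BDNF line was the highest of its line for Mki67, Pcna and Ccnd1. Of 18 immediate early and injury genes 5 were bright, among them Jun and Jund, and 2 were dim, against the same shares of all genes. Fos stayed between 81.2 and 207 and Atf3, a marker of axon injury, between 67.4 and 94.6.

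Gene families gave a second view of the same ranking. Their counts stand beside 8.2% bright and 16.1% dim of all genes. Of 39 olfactory receptor genes 31 were dim, 5 of them at the floor, and none was above the gene median, which follows in part from their use in setting the dim limit. Vomeronasal receptors had 27 dim genes of 32, 11 of them at the floor. Of 33 Hox genes none was bright and 13 were dim, and the brightest, Hoxd1, read 2647, 2799 and 2996 in the BDNF line and 2598, 2275 and 2780.5 in the NT4 line. Among 84 potassium channel genes none was bright and 13 were dim, the latter near the 16.1% of all genes, and Kcnc4 was the brightest at 2437 to 3654. Of 11 voltage-gated sodium channel genes 2 were bright: Scn9a, the channel Nav1.7 of peripheral sensory neurons, read 3529, 3779.6 and 3652 in the BDNF line and 3503, 3495 and 3378 in the NT4 line, and Scn7a, an atypical member that is not gated by voltage like the others, read 6051, 5977 and 5674 in the BDNF line and 5817, 5612 and 5775 in the NT4 line. Cacna1b, the pore of N-type calcium channels at sensory terminals, read 7129, 6441 and 6859.6 in the BDNF line and 6251, 5601 and 5241 in the NT4 line, and Cacng5 was the other bright calcium channel gene of 24.

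Among families of transcription factors, Sox11, a factor of immature neurons, read 8313, 8312 and 8467 in the BDNF line and 6097, 5781 and 6422 in the NT4 line and was bright with Sox12, while the other 17 of 19 Sox genes were not. Klf7, a factor needed by sensory neurons, read 7566, 7362 and 8189.8 in the BDNF line and 7312, 6695 and 7063 in the NT4 line and was bright with Klf6. Id4 read 13354, 11331 and 12867 in the BDNF line and 11275, 11121 and 9970.5 in the NT4 line and was the brightest of 13 Hes, Hey and Id genes. Of 12 proneural genes none was bright, and Neurod1, which acts downstream of the neurogenins, read 2563, 2585 and 2772 in the BDNF line and 349, 432 and 299 in the NT4 line. The lines did not overlap for Neurod1 on this probe set, whereas its second probe set averaged 271 in the BDNF line and 302 in the NT4 line, the other way round. Kif5c, a kinesin heavy chain of axons, read 10288, 10200.1 and 10712 in the BDNF line and 9848, 9631 and 9401 in the NT4 line. Of 53 kinesin and dynein genes 13 were bright and 5 dim, against 8.2% and 16.1% of all genes. The mechanically gated channel gene Piezo2 read 4900.2, 4554 and 4993 in the BDNF line and 3617, 3337 and 3642 in the NT4 line, and Fgf13, an intracellular member of the FGF family, 10205, 9633 and 10166 in the BDNF line and 10523, 10282 and 10365 in the NT4 line. Of 61 chemokine and interleukin genes 31 were dim and none was bright, against 16.1% and 8.2% of all genes. The brightest, Cxcl12, read 1172, 1117 and 1412 in the BDNF line and 818, 724 and 2171 in the NT4 line.

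The lines ranked most genes alike. The percentile of a gene differed between the lines by a median of 2.33, by 0.418 for bright genes and by 2.87 for genes in the middle band. A gap over 10 was found for 1875 genes, over 20 for 599 and over 40 for 53. Of genes bright on the 3 arrays of a line, 147 were so in the BDNF line alone and 160 in the NT4 line alone. Among these, 5 per direction with the widest gap were picked for that gap, so their values are a description. Vstm2l read 7142, 6983 and 7158 in the BDNF line and 342, 367 and 331 in the NT4 line, Mageh1 4348, 4486 and 4489.5 in the BDNF line and 271, 353 and 374 in the NT4 line and Lzts1 3812, 3623 and 3577 in the BDNF line and 244, 257 and 215 in the NT4 line. Ambra1, a regulator of autophagy, read 3627, 4031 and 3967 in the BDNF line and 252, 296 and 243 in the NT4 line, and Pid1 5265, 5255 and 5209 in the BDNF line and 437, 336 and 531 in the NT4 line. The arrays of the lines did not overlap for any of these 5 on the probe set shown. The other probe sets of Ambra1 averaged 74.3 and 97.1 in the BDNF line and 95.6 and 84.4 in the NT4 line, without a gap of that kind. Line means of the other probe sets of Pid1 ran from 27.5 to 110.5 and were higher in the NT4 line for each. Vstm2l, Mageh1 and Lzts1 are each represented by 1 probe set.

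In the other direction, Apbb1, an adaptor that binds the amyloid precursor protein, read 192, 107.6 and 181 in the BDNF line and 6047, 6169 and 6203 in the NT4 line, and Tlcd1 154, 94.0 and 69.4 in the BDNF line and 3679.6, 3641 and 3755 in the NT4 line. Pan3 read 604, 842 and 806 in the BDNF line and 3395, 3401 and 3432 in the NT4 line, Ndfip2 1062, 1329 and 1296 in the BDNF line and 4301, 4292 and 3899 in the NT4 line and Gnb4, a G protein beta subunit, 2095, 1766 and 2079 in the BDNF line and 3848, 3834 and 3985 in the NT4 line. Again the lines did not overlap. Other probe sets of these genes did not repeat the gap in every case. The second probe set of Apbb1 averaged 516 in the BDNF line and 579 in the NT4 line, and that of Gnb4 averaged 2976 and 2526, the other way round. For Tlcd1 the remaining probe sets averaged 11.3 to 133. One other probe set of Pan3 averaged 711 and 1271 and one of Ndfip2 537 and 509 in the BDNF and the NT4 line. The cause of these gaps was not tested.

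**Figure D3:**
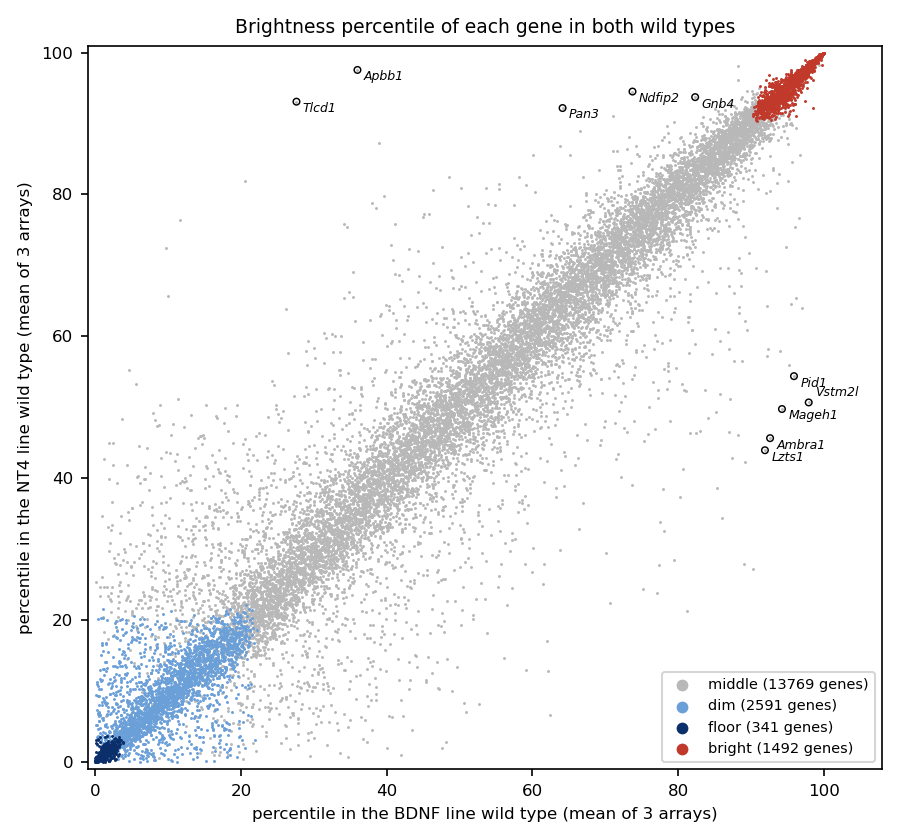
Brightness percentile of each of 18193 genes in the wild type of the BDNF line (horizontal axis) and of the NT4 line (vertical axis), coloured by band, with the 341 floor genes drawn apart from the other 2591 dim genes. Most genes lie along the diagonal. The 10 named genes bright in 1 line and with the widest gaps lie off it, Gnb4 the least, at percentiles 82.4 and 93.7.

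The spread between replicates set how far a rank can be read. In the brightest decile of genes, the median SD of log2 intensity over the 3 arrays was 0.066 in the BDNF line and 0.057 in the NT4 line, and the percentile of a gene ranged over a median of 1.53 across the 6 arrays. In the dimmest decile the SD was 0.285 and 0.273. The percentile was least stable in the lower middle, with a median range of 10.2 in the 4th decile from below. Genes in the BDNF line had a larger SD than in the NT4 line in every decile, with 0.268 against 0.186 in the 5th. Among bright genes, the 10 with the widest log2 range in a line included Col1a2, Col3a1, Col2a1, Ccnd2, Sfrp2 and Mdk. Sfrp2, a secreted modulator of Wnt signalling, read 4782, 7070.4 and 4649 in the BDNF line and 3670.2, 3989.7 and 7176 in the NT4 line. Mdk, the growth factor midkine, read 3736, 4500.4 and 4328 in the BDNF line and 3133, 3627 and 5601 in the NT4 line, and replicate 3 of the NT4 line was highest for both in that line. The noncoding RNAs Meg3 and Snhg11 were among the 10 as well, at 5352, 5802 and 4014 in the BDNF line and 6449, 4999 and 6164 in the NT4 line and at 5977, 5964 and 3504 in the BDNF line and 5995, 4224 and 4716 in the NT4 line.

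**Figure D4:**
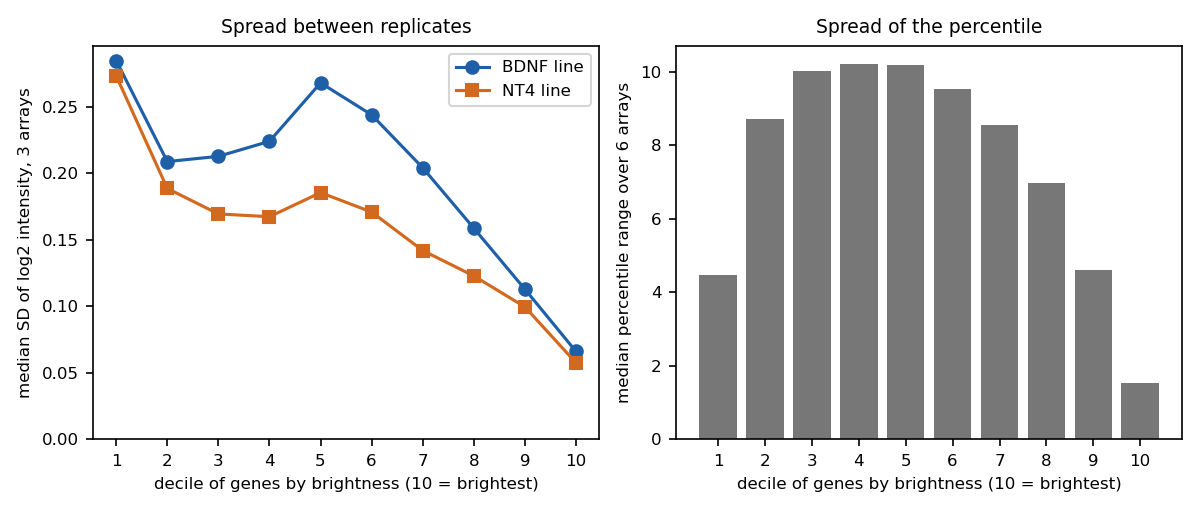
Median SD of log2 intensity over the 3 arrays of each line (left) and median range of the percentile over all 6 arrays (right), in deciles of genes by brightness, with 10 the brightest. The SD falls to 0.066 and 0.057 in the brightest decile, and the percentile range is widest, at 10.2, in decile 4.

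The level given for a gene also depends on which probe set stands for it. Of the genes, 9183 had 1 probe set and 9010 had several. Among the latter the brightest and the dimmest probe set differed by a median of 1.99 on the log2 scale, and by over 3 in 2954 genes (32.8%). Of 1175 bright genes with several probe sets, 173 (14.7%) had another in the dim range. Tubb4b is the plainest case, with a brightest probe set at 14913 on average and others at 3144 and at 14.0 to 25.5.

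Promoter sequence was then set beside brightness, as a property the bands did not use. RefSeq promoters of assembly GRCm38.p6 ran from 250 bases before to 50 bases after the start of a gene. They were matched through the Entrez gene ID of the chosen probe set for 14368 of the 18193 genes. Promoters of bright genes were richer in CpG: the observed over expected CpG ratio had a median of 0.823 for bright genes, 0.715 for middle genes, 0.245 for dim genes above the floor and 0.170 for floor genes, against 0.675 for all. The GC content moved with it, from a median of 44.3% in floor genes to 62.7% in bright genes. By deciles of brightness the CpG ratio was 0.211 in the dimmest, 0.718 in the 5th and 0.823 in the brightest, so most of the difference lay in the lower deciles. Genes that share a family or a cluster on a chromosome are not independent, and no test was made.

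Short motifs were searched on both strands. The TATA box (TATAAA) was found in 7.86% of bright, 19.5% of dim and 27.2% of floor promoters, against 9.86% of all. The GC box (GGGCGG), which itself holds a CpG, was found in 70.3%, 22.2% and 8.21%, against 54.1% of all. An ETS site (CCGGAAG), which also holds a CpG, was found in 18.7%, 4.27% and 1.87%, against 13.8% of all. The CCAAT box (CCAAT), which has no CpG, was found in 37.6%, 38.7% and 39.2%, close to the 38.2% of all promoters. The CRE core (TGACGTC), which holds a CpG, was found in 7.53% of bright, 1.68% of dim and 2.24% of floor promoters, against 4.63% of all. The E box of proneural factors (CAGATG) was found in 11.6%, 19.0% and 20.1%, against 13.5% of all, and the octamer (ATGCAAA) in 2.62%, 5.59% and 7.46%, against 3.76% of all. In middle promoters the TATA box was found in 7.92%, the GC box in 59.2%, the ETS site in 15.3% and the CCAAT box in 38.2%. The CRE core was found in 4.89% of them, the E box in 12.5% and the octamer in 3.46%. For the TATA box and the E box, bright promoters were thus close to middle promoters. No motif searched contains another. A match is a description of the letters and not a site of binding.

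**Figure D5:**
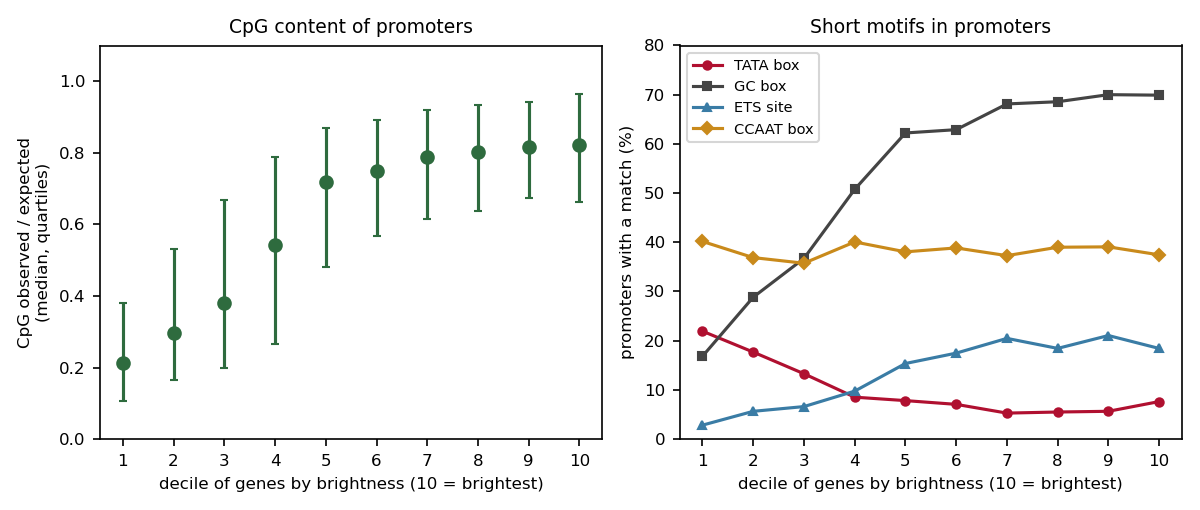
Promoter features by decile of brightness, with 10 the brightest: the median observed over expected CpG ratio with quartiles (left) and the share of promoters in percent with a match to 4 motifs (right). The CpG ratio climbs from 0.211 to 0.823 and the GC box with it, the TATA box is most frequent in the dimmest deciles, and the CCAAT box stays level.

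The 7 promoters printed next are examples in letters, and some of them depart from the difference between the bands. They are bright Prph, Tmsb10, Isl1 and Ntrk2, dim En1, and Flg and Tas2r105 at the floor, 5′ to 3′ on the strand of the gene, with each CG in capitals.
Prph (chr15:99054924-99055223, plus strand): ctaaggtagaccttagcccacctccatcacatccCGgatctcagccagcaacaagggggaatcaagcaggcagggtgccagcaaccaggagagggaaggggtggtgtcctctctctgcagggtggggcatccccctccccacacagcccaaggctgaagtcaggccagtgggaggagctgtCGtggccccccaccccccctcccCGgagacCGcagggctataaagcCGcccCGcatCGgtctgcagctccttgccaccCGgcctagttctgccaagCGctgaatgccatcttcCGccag
Tmsb10 (chr6:72958699-72958998, minus strand): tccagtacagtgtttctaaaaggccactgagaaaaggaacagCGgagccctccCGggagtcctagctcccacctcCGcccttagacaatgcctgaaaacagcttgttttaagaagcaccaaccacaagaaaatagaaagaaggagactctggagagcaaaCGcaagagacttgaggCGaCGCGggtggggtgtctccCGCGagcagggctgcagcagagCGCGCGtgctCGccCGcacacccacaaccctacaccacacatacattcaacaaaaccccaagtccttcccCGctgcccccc
Isl1 (chr13:116309639-116309938, minus strand): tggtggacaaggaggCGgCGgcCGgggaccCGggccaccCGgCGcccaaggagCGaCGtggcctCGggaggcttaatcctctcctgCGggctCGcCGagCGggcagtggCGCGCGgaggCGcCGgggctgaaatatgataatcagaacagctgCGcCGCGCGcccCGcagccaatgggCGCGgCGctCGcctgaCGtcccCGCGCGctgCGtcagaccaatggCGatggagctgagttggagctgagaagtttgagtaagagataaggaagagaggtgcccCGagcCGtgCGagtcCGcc
Ntrk2 (chr13:58806319-58806618, plus strand): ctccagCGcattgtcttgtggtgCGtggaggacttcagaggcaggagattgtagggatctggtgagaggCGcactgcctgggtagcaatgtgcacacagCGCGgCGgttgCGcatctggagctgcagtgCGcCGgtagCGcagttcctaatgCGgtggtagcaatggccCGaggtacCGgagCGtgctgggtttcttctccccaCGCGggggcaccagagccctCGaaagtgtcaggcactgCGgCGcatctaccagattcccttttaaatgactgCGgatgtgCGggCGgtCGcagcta
En1 (chr1:120602237-120602536, plus strand): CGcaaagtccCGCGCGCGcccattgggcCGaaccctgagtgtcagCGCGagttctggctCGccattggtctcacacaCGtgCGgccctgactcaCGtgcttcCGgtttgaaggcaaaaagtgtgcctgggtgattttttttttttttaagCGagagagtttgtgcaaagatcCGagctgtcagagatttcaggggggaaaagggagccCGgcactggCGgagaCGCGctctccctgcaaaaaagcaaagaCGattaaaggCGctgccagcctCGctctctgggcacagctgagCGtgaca
Flg (chr3:93273296-93273595, plus strand): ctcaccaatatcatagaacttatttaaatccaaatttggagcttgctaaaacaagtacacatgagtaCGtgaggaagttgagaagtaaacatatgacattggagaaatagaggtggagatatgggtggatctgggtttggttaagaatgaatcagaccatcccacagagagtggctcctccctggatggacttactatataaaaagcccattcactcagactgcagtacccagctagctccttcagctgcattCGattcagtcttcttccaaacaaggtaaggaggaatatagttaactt
Tas2r105 (chr6:131687414-131687713, minus strand): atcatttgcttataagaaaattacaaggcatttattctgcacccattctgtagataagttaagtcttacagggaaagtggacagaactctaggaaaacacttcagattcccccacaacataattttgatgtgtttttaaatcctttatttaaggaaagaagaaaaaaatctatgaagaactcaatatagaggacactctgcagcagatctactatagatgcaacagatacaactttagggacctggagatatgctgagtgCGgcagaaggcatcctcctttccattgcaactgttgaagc
Isl1 had 37 CpG (observed over expected 1.05, with a CCAAT box and a CRE core) and Ntrk2 23 (0.835, with a GC box and an E box). Tmsb10 had 15 (0.640, with a GC box) and Prph 10 (0.324, with a TATA box and a GC box). At the floor, Flg had 2 (0.159, with a TATA box and a CCAAT box) and Tas2r105, a bitter taste receptor gene, 1 (0.0957, with no motif). En1, a homeobox gene of the midbrain and hindbrain, had 23 CpG (0.948, with a CCAAT box and an ETS site). It read 9.36, 9.76 and 9.17 in the BDNF line and 4.19, 36.6 and 18.6 in the NT4 line, so a CpG-rich promoter went with a dim gene here. Set against the median of 0.675 over all genes, the ratio was lower for bright Prph and Tmsb10 and higher for dim En1, so single genes depart from the difference between the bands.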

How the data were processed

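The values used are linear intensities per probe set that the authors deposited as the series' value table. How they corrected background and scaled the arrays is not stated in the labels, and the values were used as deposited, without further normalization. The deposited table holds 45101 probe sets, of which 64 are array controls. Of the other 45037, 34945 have 1 gene symbol in the platform annotation, 932 have several and 9160 have none, and 34741 of the first were matched to current names and chromosomes of assembly GRCm38.p6, which also gave the promoter sequences. A table of proteins was not used here, so protein length was not set beside brightness.

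Percentiles, bands, list counts and promoter features were computed with pandas 2.3.3 and numpy 2.4.6 in Python 3.11.15, and figures with matplotlib 3.10.9. Arrays carry no counts, so their number, 3 per line, limits the precision.

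The members, gene lists and families were chosen with earlier results of these data known. The 33 lists hold 488 different genes, of which 442 were analysed on probe sets with 1 symbol. Genes were named by rule: the 3 markers and other cell type markers, the 25 best-ranked genes, the 4 brightest and up to 3 dimmest of each list, the 2 brightest of each family, the 10 bright genes with the widest range, the 5 widest line gaps in each direction and all visceral genes. Kdm5d and Xist, and the list members Alb, Atf3, Bsn, Ccnd1, Col9a2, Cplx1, Elavl2, Elavl3, En2, Fos, Gdnf, Jun, Lum, Map1b, Mbp, Nefm, Pclo, Runx1, Runx3, Scn10a, Sst, Syp and Unc13a, fall outside this rule and were chosen after their values were seen. Alternatives were leaving out arrays, other probe set rules, quantile normalization and other limits.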

Additional observations from a re-analysis of the deposited data

How the results depend on the processing

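Counts of bright, dim and floor genes follow their limits. With the top 5% in place of the top 10%, 742 genes were bright. With the 75th percentile of olfactory receptor genes as the limit 1302 genes were dim, and with vomeronasal in place of olfactory receptor genes 1454. Under 10 on all 6 arrays there were 89 floor genes, and under 40 there were 1146. Under every other alternative run, the counts stayed within 1.5 times those reported: 1443 to 1654 bright genes, 2929 to 3592 dim genes and 339 to 385 floor genes. Leaving out 1 array gave 1497 to 1533 bright, 2968 to 3047 dim and 354 to 365 floor genes, all above the reported counts because fewer arrays have to pass, and 88 to 91 shared genes of the top 100. Taking the median of a gene's probe sets in place of the brightest moved 23 of 33 list medians by more than the spread between arrays, most for the somatosensory list (lower by 13.8 percentile points) and the visceral list (higher by 11.1), and moved 235 of 332 named genes, 75 of them by over 10 points. Tubb4b then lay at percentile 7.09, Prm1 at 4.71, Pid1 at 24.9 and Ntrk3 at 36.7. Leaving out 1 array moved none of 198 list values and 2 of 1992 gene values. No paired analysis was possible because the results come from no test.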

Other observations

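Some bright signal lay outside the gene table. Of 932 probe sets with several symbols 191 passed the bright limit on all 6 arrays, as did 132 of 9160 without a symbol. The glycolytic gene Gapdh is measured by a probe set shared with pseudogenes and averaged 14953, and Rpl23 by one that averaged 18474. The adult alpha globin Hba-a1 averaged 60.3 on its own probe set and 12651 on one shared with Hba-a2. On that shared probe set it read 14907, 14016 and 13995 in the BDNF line and 9164, 13309 and 10517 in the NT4 line.

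Bright genes were spread over the autosomes, from 5.31% of the measured genes of chromosome 7 to 10.3% of those of chromosome 10, against 8.2% of all. Chromosome X had 8.59% bright and 22.7% dim genes, against 16.1% dim of all, and chromosome 6 had 22.6% dim. No test was made of these shares.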
